A study of Daucus carota with 18 samples.

Results

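The purple outer phloem (POP) of dark purple carrot roots of set dP2 was compared with that of set dP1, with 6 libraries of the 18 in the series. The 3 libraries titled dP2_POP and the 3 titled dP1_POP were taken, each made from the outer phloem of 1 field-grown taproot of *Daucus carota*. The dP2 roots came from an F2 family grown at Hancock, Wisconsin, and had purple xylem. The dP1 roots came from a sister F2 family grown at El Centro, California, and had non-purple xylem. Both families descend from the cross of an orange carrot with a carrot of Turkish purple origin, and both sets carried a high anthocyanin content in the outer phloem and no purple in the inner phloem. Family, growing site and xylem colour differ together between the sets, so their parts in any difference cannot be told apart. The non-purple inner phloem (NPIP) of the same 6 roots, and the POP of the pale purple set pP (3 roots, family and site of dP1), were used as values beside the results.

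Anthocyanins are the purple vacuolar pigments of carrot. Their carbon enters through phenylalanine ammonia-lyase (PAL) and 4-coumaroyl-CoA ligase (4CL), which feed all phenylpropanoids, lignin and suberin precursors among them. Chalcone synthase (CHS) opens the flavonoid branch, dihydroflavonol reductase (DFR) and leucoanthocyanidin dioxygenase (LDOX) close it, and glycosyltransferases and vacuolar carriers decorate and store the pigment. R2R3-MYB proteins with a bHLH partner switch on the flavonoid branch in many plants.

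The 6 libraries held 8464637 to 8680552 expected counts in dP2 and 8016658 to 9109738 in dP1. Of 32113 genes in the files, 18670 reached a CPM (read count scaled to a common library total) of 1 in at least 3 of these libraries and were tested with edgeR's quasi-likelihood test, called at a Benjamini-Hochberg false discovery rate (FDR) under 0.05. Levels are given as normalized CPM per root, in the order of roots 1, 2 and 3 of a set, and differences as log2 fold changes (log2FC) of dP2 over dP1. The correlation of log2 levels was 0.930 to 0.958 within dP2, 0.929 to 0.954 within dP1 and 0.727 to 0.790 between sets. The actin gene DCAR_030967, used by the study as a qPCR reference and with counts that were not whole in 5 of the 6 libraries, had 530.3, 565 and 746 CPM in dP2 and 421, 652 and 350.3 CPM in dP1, which overlap, with a log2FC of 0.34 (SE 0.28, FDR 0.394) in edgeR's quasi-likelihood test. Within dP1, roots 1 and 2 stood apart in the flavonoid genes described further on, and results that rest on root 1 are given with and without it.

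The outer phloem of the sets differed widely. In dP2, 3395 genes were higher and 2302 were lower than in dP1, which is 30.5% of the genes tested (18.2% higher and 12.3% lower). The median log2FC was 2.30 among the genes called higher, −1.32 among those called lower and 0.01 over all genes tested. A log2FC above 2 was reached by 1986 of the genes called higher, and one under −2 by 616 of those called lower. The CPM of the sets did not overlap for 9007 genes (48.2%), of which 5020 were higher (26.9%) and 3987 lower (21.4%) in dP2. The count of lower genes depended on single libraries, with 1239 without dP2 root 2 and 1336 without dP2 root 3. Without dP1 root 1, 2860 genes were higher and 1713 lower. Fits without 1 library used a filter of 2 libraries. With the 18670 genes kept instead, the lower genes numbered 1229 without dP2 root 2, 1306 without dP2 root 3 and 1529 without dP1 root 3.

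**Figure D1:**
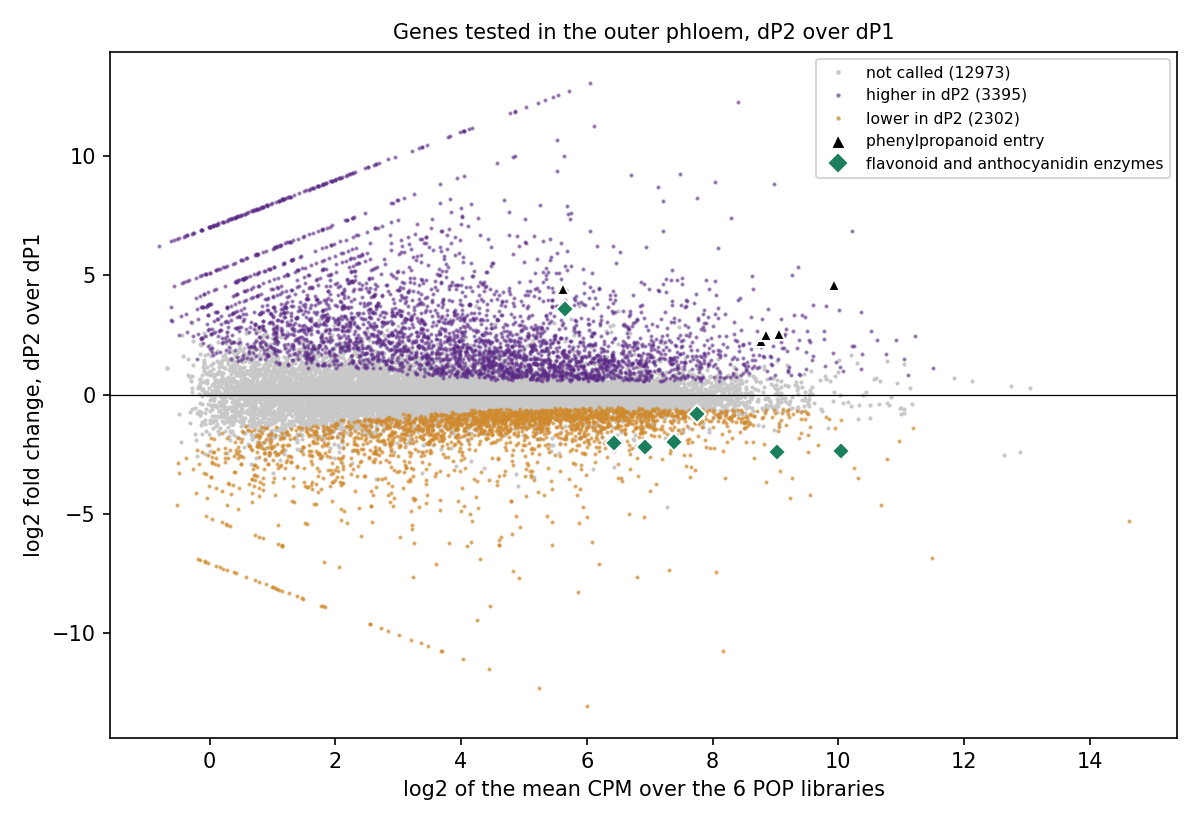
The log2 fold change of dP2 over dP1 (vertical axis) is plotted against the log2 of the mean CPM of the 6 POP libraries (horizontal axis) for each of the 18670 genes tested, with 3395 called higher in purple, 2302 called lower in orange and the rest in grey. Triangles mark the 5 PAL and 4CL genes, all above 2, and diamonds the 7 flavonoid enzyme genes, of which 1 was called higher and 6 lie below 0 without a call. The straight lines of points at the upper and lower left are genes with no read or very few reads in one set.

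The 5 listed genes of the phenylpropanoid entry were all higher in dP2, against 18.2% of all genes tested. They comprise the PAL genes DCAR_014989, DCAR_017697 and DCAR_020833 and the 4CL genes DCAR_025617 and DCAR_021385, and their median log2FC was 2.56. The study listed these 5 because they were higher in POP than in NPIP in each set. They were thus chosen on the same libraries, and their direction is no independent evidence. Other PAL or 4CL genes were not examined, so the count does not describe the whole step. No dP1 root reached the level of any dP2 root in any of the 5 genes, which held for 26.9% of all genes tested. The calls held in each of the 6 fits without 1 library.

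The widest gap was in the PAL gene DCAR_020833, with 1345, 2545 and 1736 CPM in dP2 and 92.8, 72.2 and 60.6 CPM in dP1. The means were 1876 ± 612 CPM in dP2 and 75.2 ± 16.3 CPM in dP1 (SD, n = 3 each), a log2FC of 4.61 (SE 0.34, FDR 0.000383) in edgeR's quasi-likelihood test. The other PAL genes were closer. DCAR_014989 had 688, 1354 and 699.6 CPM in dP2 and 86.9, 218 and 152 CPM in dP1, a log2FC of 2.56 (SE 0.42, FDR 0.00426) by edgeR. DCAR_017697 had 536, 1036 and 613 CPM in dP2 and 76.7, 206 and 167 CPM in dP1, a log2FC of 2.25 (SE 0.42, FDR 0.00661) by edgeR. Their expected counts were not whole in 2 of the 6 libraries each, so reads that also fit another gene cannot be told apart there. On the authors' TPM scale, which corrects for gene length, DCAR_020833 had 564, 1066 and 724 TPM in dP2, above DCAR_014989 with 285, 561 and 289 TPM in the same roots. In dP1 it had 37.8, 31.1 and 24.8 TPM, against 35, 92.8 and 61.4 TPM for DCAR_014989. DCAR_020833 was thus the more abundant of the pair in all dP2 roots, and the less abundant in dP1 roots 2 and 3.

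Of the 4CL genes, which make the CoA ester that CHS uses, DCAR_025617 had 74.1, 137 and 71.4 CPM in dP2 and 6.71, 3.45 and 2.68 CPM in dP1. Its log2FC was 4.43 (SE 0.44, FDR 0.000909) in edgeR's quasi-likelihood test. DCAR_021385 had 540.1, 1155 and 665 CPM in dP2 and 142, 102 and 161 CPM in dP1, a log2FC of 2.51 (SE 0.34, FDR 0.00223) by edgeR, with counts that were not whole in 3 of the 6 libraries. The summed level of the 5 entry genes ran from 3183 to 6227 CPM in dP2 and from 405 to 601 CPM in dP1. In the pale set DCAR_020833 had 154, 98.1 and 198 CPM in the outer phloem, above the dP1 roots and far under the dP2 roots.

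**Figure D2:**
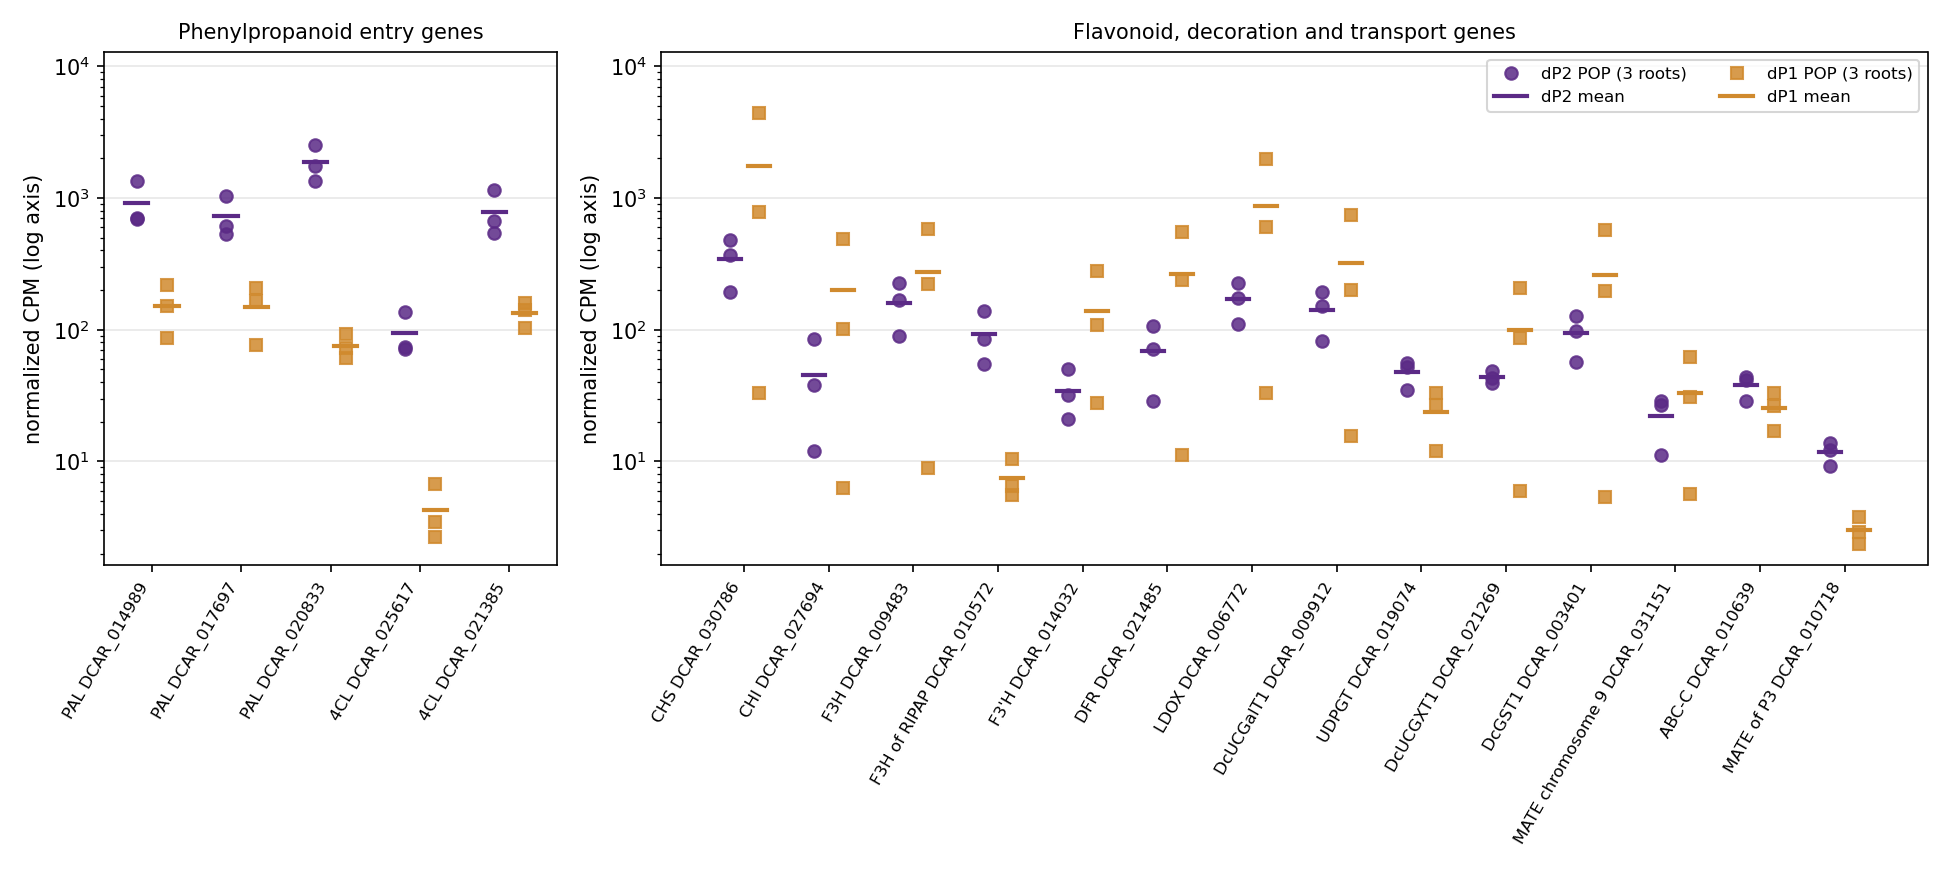
Normalized CPM on a log axis for each root, with dP2 (circles) left of dP1 (squares) and a bar at the mean of 3 roots, for the 5 PAL and 4CL genes (left) and the 14 flavonoid, decoration and transport genes (right). The entry genes are higher in dP2 without overlap, as are 26.9% of all genes tested. In 9 of the 14 later genes the 3 dP2 roots lie inside the range of the dP1 roots, a count not made over all genes.

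Calls were fewer in the later steps. Of 14 genes for flavonoid enzymes, decoration and transport, 2 were higher in dP2, 12 were not called and none was called lower by edgeR's quasi-likelihood test, against 18.2% higher and 12.3% lower over all genes. These 14 were likewise listed by the study for a difference between POP and NPIP in each set, on the same libraries. The genes that were not called include CHS, chalcone isomerase (CHI), flavanone 3-hydroxylase (F3H) DCAR_009483, flavonoid 3′-hydroxylase (F3′H), DFR and LDOX. All 6 had a log2FC below 0. The spread between the dP1 roots was wide in these genes. The highest dP1 root exceeded the lowest by a median of 41.1-fold over the 14 genes, against 2.37-fold among the dP2 roots. Over all genes with reads in each of the 3 roots, the same median was 1.52-fold in dP2 and 1.60-fold in dP1. The lowest of the 3 dP1 roots was root 1 in 12 of the 14 genes, and the highest was root 2 in 11. A wide spread was not limited to dP1. The outer phloem of the pale set had 3.07, 78.4 and 16 CPM of F3H DCAR_009483 and 5.61, 70.1 and 17.5 CPM of DFR. Its roots were closer in F3′H, with 35, 38.2 and 21.5 CPM. The median over the 14 genes was not computed for that set.

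CHS DCAR_030786 had 195, 371 and 476 CPM in dP2 and 33.3, 4444 and 788 CPM in dP1. Its log2FC was −2.37 (SE 1.28, FDR 0.202) in edgeR's quasi-likelihood test. CHI DCAR_027694, which closes the flavanone ring, had 12.1, 38 and 85.1 CPM in dP2 and 6.31, 488 and 102 CPM in dP1. In both genes dP1 root 1 was below all dP2 roots and dP1 roots 2 and 3 were above them. F3H DCAR_009483 had 89.1, 167 and 225 CPM in dP2 and 8.94, 586 and 222 CPM in dP1, so that dP1 root 3 fell among the dP2 roots. F3′H DCAR_014032, which sets the hydroxylation of the cyanidin ring, had 20.9, 31.7 and 50.6 CPM in dP2 and 27.7, 279 and 109 CPM in dP1, a log2FC of −2.04 (SE 0.74, FDR 0.0727) by edgeR. DFR DCAR_021485 had 28.6, 71.5 and 107 CPM in dP2 and 11.2, 548 and 239.6 CPM in dP1. LDOX, whose identifier lacks a digit in the study and was read as DCAR_006772, had 111, 173 and 227 CPM in dP2 and 33, 1976 and 606 CPM in dP1, with a log2FC of −2.38 (SE 1.10, FDR 0.14) by edgeR. In DFR and LDOX again dP1 root 1 was the lowest of the 6 roots and dP1 root 2 the highest. The pale set had 87.2, 492 and 192 CPM of CHS and 22.2, 292 and 99.5 CPM of LDOX, so that dP1 root 1, though of a dark purple set, lay below all pale roots in CHS and within their range in LDOX.

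For 6 of the 14 genes the absence of a call rested on dP1 root 1. Without it these genes were lower in dP2 by edgeR, namely CHS, F3′H, DFR, LDOX, the glycosyltransferase DcUCGXT1 and the glutathione S-transferase DcGST1, with FDR from 0.0126 to 0.0296. The log2FC without that root was −2.97 for CHS and −2.98 for LDOX. Leaving out dP1 root 2 or dP1 root 3 gave no gene of the 14 a lower call. Without dP1 root 2 the log2FC was −0.29 for CHS, −0.96 for LDOX, −0.13 for DcUCGXT1 and −0.15 for DcGST1. Of the 14 genes, 7 then had a log2FC below 0, against 10 with all 6 libraries. The size of these decreases thus depended on dP1 root 2. F3′H was also lower with all 6 libraries by DESeq2 (FDR 0.0101), by the likelihood ratio test of edgeR (FDR 0.0190) and in the fits of 12 and 18 libraries (FDR 0.0431 and 0.0258).

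The exception among the flavonoid enzymes was a second F3H gene, DCAR_010572 (chromosome 3, 25684635 to 25689703 on the assembly of the study's tables), which lies in the interval that the study mapped for root inner phloem anthocyanin pigmentation (RIPAP). It had 54.8, 139 and 85.7 CPM in dP2 and 5.52, 6.46 and 10.5 CPM in dP1, without overlap. Its log2FC was 3.60 (SE 0.42, FDR 0.00143) in edgeR's quasi-likelihood test, and the gene was called in each fit without 1 library. The pale set had 188, 75.3 and 91 CPM of this gene, so the dP1 roots were the low ones of the 3 sets.

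The 3 glycosyltransferase genes of decoration were not called. The study also names the acyltransferase DcSCPL1, under another kind of identifier. That gene was not examined here, so acylation is not covered. DcUCGalT1 DCAR_009912, which adds galactose to cyanidin, had 82.7, 152 and 192 CPM in dP2 and 15.6, 742 and 202 CPM in dP1. DcUCGXT1 DCAR_021269, which extends the sugar chain, had 39.7, 42.9 and 48.7 CPM in dP2 and 5.92, 206 and 86.9 CPM in dP1, and its dP2 roots were close together while its dP1 roots spanned both sides of them. The third glycosyltransferase, UDPGT DCAR_019074, had 55.9, 52.4 and 35 CPM in dP2 and 32.9, 26.6 and 12.1 CPM in dP1, without overlap, at a log2FC of 0.97 (SE 0.38, FDR 0.088) by edgeR.

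Among carriers, DcGST1 DCAR_003401, a glutathione S-transferase of the kind that carries anthocyanins to the vacuole, had 56.7, 97.6 and 128 CPM in dP2 and 5.39, 575 and 196 CPM in dP1. The MATE transporter DCAR_031151 had 11.2, 28.7 and 26.9 CPM in dP2 and 5.65, 62.6 and 31.1 CPM in dP1. Neither gene separated the sets, and both showed the low root 1 and the high root 2 of dP1. The ABC-C transporter DCAR_010639 had 41.4, 43.7 and 29 CPM in dP2 and 32.9, 26.3 and 17.1 CPM in dP1, which overlap. The MATE gene in the P3 region of chromosome 3, DCAR_010718, was the one carrier called higher. It had 9.29, 12.2 and 13.7 CPM in dP2 and 2.37, 3.79 and 2.93 CPM in dP1, a log2FC of 1.92 (SE 0.33, FDR 0.00482) in edgeR's quasi-likelihood test. The sucrose invertase DCAR_009482, which splits sucrose into glucose and fructose, was also higher, with 13.6, 19.5 and 17.7 CPM in dP2 and 4.60, 8.36 and 2.32 CPM in dP1 and a log2FC of 1.70 (SE 0.45, FDR 0.0256) by edgeR. Its call was lost without dP1 root 1 (FDR 0.0773), dP2 root 2 (FDR 0.0853) or dP2 root 3 (FDR 0.0687).

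Of 10 identifiers of anthocyanin regulators, 2 of them for the single gene DcMYB113, 3 were higher and 2 were lower in dP2, against 18.2% higher and 12.3% lower over all genes. Among the 3 is DCAR_008994 for DcMYB113, and the other identifier of that gene was not called. No result is read from counts this near to the shares over all genes. DcMYB7 DCAR_010745 (chromosome 3, 27816911 to 27819103), the R2R3-MYB of the P3 locus, was lower. It had 2.41, 2.93 and 2.40 CPM in dP2 and 2.63, 37 and 14.9 CPM in dP1, so that the lowest dP1 root, again root 1, fell within the dP2 range. Its log2FC was −2.84 (SE 0.82, FDR 0.0347) in edgeR's quasi-likelihood test. The call was held without dP1 root 1 (log2FC −3.38, FDR 0.00557) and was lost without any of the other 5 libraries (FDR 0.0665 to 0.100) and in the fit of 12 libraries (FDR 0.0562). Its expected counts were not whole in 4 of the 6 libraries, so reads shared with a similar gene cannot be told apart. The outer phloem of the pale set had 2.67, 4.56 and 2.40 CPM, close to the dP2 roots and to dP1 root 1.

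DcMYB6 DCAR_000385, another R2R3-MYB, had 4.35, 3.57 and 6.49 CPM in dP2 and 0.789, 23.4 and 9.76 CPM in dP1, at a log2FC of −1.26 (SE 0.90, FDR 0.321) by edgeR, and was lower without dP1 root 1 (FDR 0.0348). DcbHLH3 DCAR_002739, the bHLH partner that DcMYB7 is known to activate in carrot, had 9.90, 16.7 and 15.9 CPM in dP2 and 14.2, 158 and 43.2 CPM in dP1. Its log2FC of −2.37 (SE 0.77, FDR 0.052) missed the threshold in edgeR's quasi-likelihood test. It was called lower without dP1 root 1 (FDR 0.0138), by DESeq2 (FDR 0.00349) by the likelihood ratio test (FDR 0.00799), with no filter (FDR 0.0460) and in the fits of 12 and 18 libraries (FDR 0.0286 and 0.0226). These 3 regulators shared the order of the dP1 roots seen in the flavonoid genes, with root 1 lowest and root 2 highest.

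The gene DcMYB113 of the P1 locus is given under 2 identifiers in the study. DCAR_008994, listed with its qPCR primers, was higher in dP2, with 3.26, 3.82 and 8.17 CPM in dP2 and 0.132, 0.446 and 0.366 CPM in dP1. Its log2FC was 3.90 (SE 0.62, FDR 0.00379) in edgeR's quasi-likelihood test and was called in each fit without 1 library, at low levels and with counts that were not whole in 4 of the 6 libraries. DCAR_008994 passed the filter through the dP2 libraries alone, with 8 reads in the dP1 POP libraries together. The filter thus favoured a higher level in dP2, and the call is weak evidence of one. DCAR_008894, named in the text of the study, had 11.7, 12.9 and 6.97 CPM in dP2 and 5.13, 6.57 and 7.19 CPM in dP1 and was not called (FDR 0.149 by edgeR), except in the fit of 18 libraries (FDR 0.0284). The P1 genes that the study lists as differing between the tissues have identifiers from DCAR_008949 to DCAR_009201. That range holds DCAR_008994 and not DCAR_008894. Which of the 2 identifiers is DcMYB113 was not settled here, and the result differs between them.

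**Figure D3:**
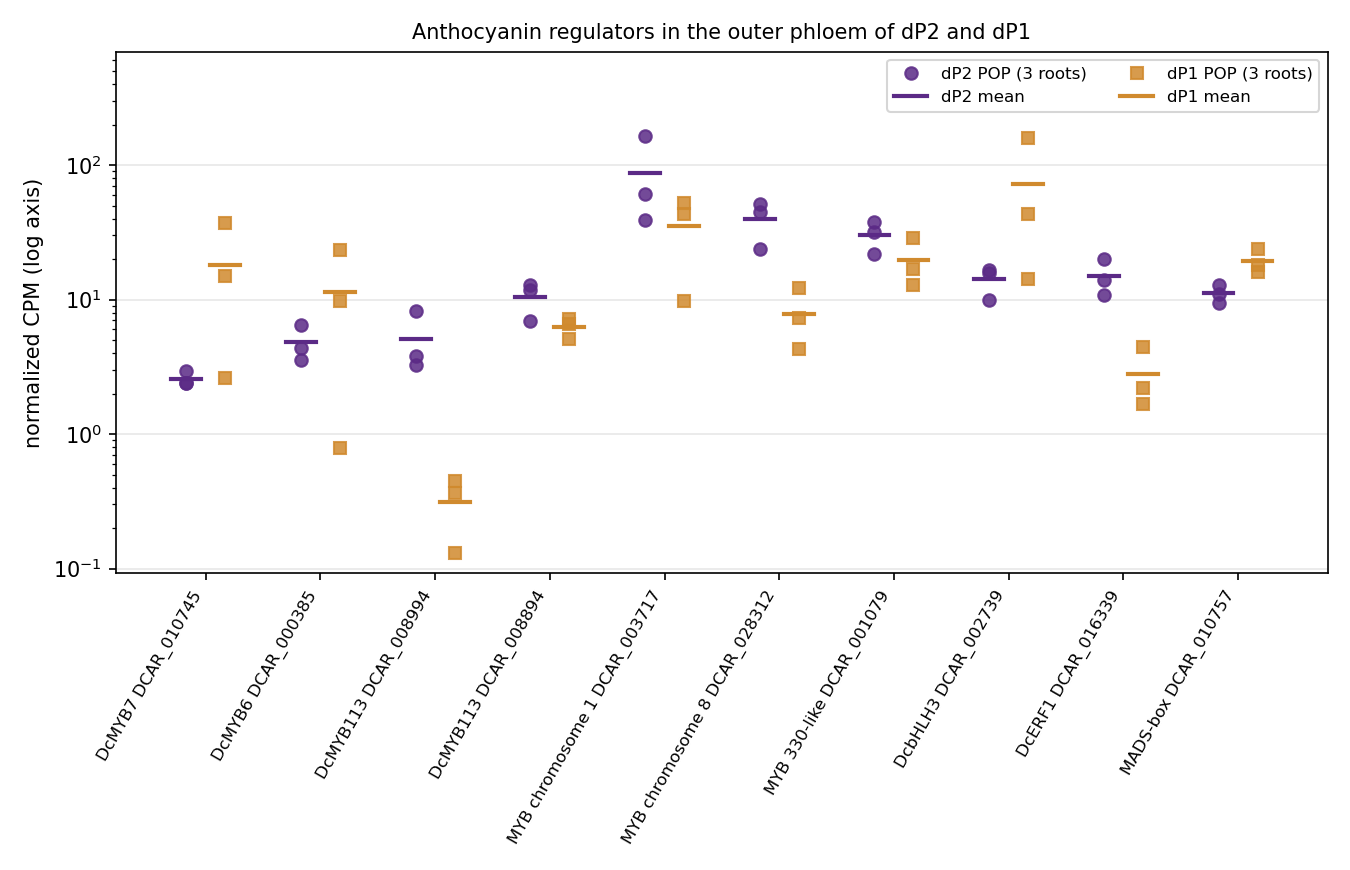
Normalized CPM on a log axis of the 10 regulator genes in each root, dP2 (circles) left of dP1 (squares), with a bar at the mean of 3 roots. DcMYB7 lies between 2.40 and 2.93 CPM in dP2 and between 2.63 and 37.0 CPM in dP1, and DCAR_008994, DCAR_028312 and DcERF1 are higher in dP2 without overlap.

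The remaining regulators moved in both directions. The gene DCAR_028312 of chromosome 8, described as MYB5, had 44.5, 51.2 and 23.9 CPM in dP2 and 12.1, 7.24 and 4.27 CPM in dP1. Its log2FC was 2.31 (SE 0.44, FDR 0.00708) in edgeR's quasi-likelihood test. DcERF1 DCAR_016339, an ethylene response factor, had 19.9, 14 and 10.8 CPM in dP2 and 4.47, 1.67 and 2.19 CPM in dP1, at a log2FC of 2.40 (SE 0.45, FDR 0.00692) by edgeR. Both calls held in each fit without 1 library. The MADS-box gene DCAR_010757 of P3 was the second regulator lower in dP2, with 12.9, 11 and 9.49 CPM in dP2 and 23.7, 17.9 and 16 CPM in dP1. Its log2FC of −0.81 (SE 0.26, FDR 0.0488) by edgeR was lost without any one of the 6 libraries (FDR 0.0507 to 0.147), with no filter (FDR 0.0572) and in the fits of 12 and 18 libraries (FDR 0.0503 and 0.0964). DCAR_003717, described as the C1 anthocyanin regulator, which is known from maize, had 163, 60.5 and 39.2 CPM in dP2 and 43.3, 9.80 and 52.2 CPM in dP1, which overlap. DCAR_001079, described as MYB 330-like, had 37.4, 31.9 and 22 CPM in dP2 and 12.8, 16.9 and 28.9 CPM in dP1 and was not called (FDR 0.226 by edgeR).

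The study lists 22 genes in the P1, P3 and RIPAP intervals of chromosome 3 whose level differed between POP and NPIP in each set. These genes were chosen on the same libraries, so their direction is no independent evidence. In the outer phloem 10 of the 22 were higher in dP2 and 3 were lower, with a median log2FC of 0.97. In P1 all 3 listed genes were higher, in P3 5 of 11 were higher and 2 lower, and in RIPAP outside P3 2 of 8 were higher and 1 lower. Over all genes tested 18.2% were higher and 12.3% lower.

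In P1, the neighbouring glycerophosphodiester phosphodiesterase-like genes were both higher. DCAR_009118 had 43.7, 50.6 and 44.1 CPM in dP2 and 5.26, 2.34 and 2.56 CPM in dP1, at a log2FC of 3.74 (SE 0.35, FDR 0.000721) in edgeR's quasi-likelihood test. DCAR_009117 had 33.8, 48.8 and 24.2 CPM in dP2 and 13.2, 3.45 and 14.1 CPM in dP1, at a log2FC of 1.77 (SE 0.52, FDR 0.036) by edgeR. The call of DCAR_009117 was lost without dP1 root 1, dP1 root 3, dP2 root 1 or dP2 root 2 (FDR 0.0594 to 0.125), and in the fits of 12 and 18 libraries (FDR 0.106 and 0.0907). The Nudix hydrolase gene DCAR_009201 had 143, 189 and 119.6 CPM in dP2 and 59.4, 42.2 and 43.9 CPM in dP1 and was 1.60 higher on the log2 scale (SE 0.24, FDR 0.00319 by edgeR).

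In P3, the plastidial pyruvate kinase gene DCAR_010645, which supplies pyruvate inside plastids, had 21.7, 43.1 and 30.9 CPM in dP2 and 13.2, 11.5 and 7.56 CPM in dP1 (FDR 0.0108 by edgeR). The ribose-phosphate pyrophosphokinase gene DCAR_010690, of nucleotide synthesis, had 7.73, 15.2 and 7.81 CPM in dP2 and 1.97, 1.23 and 2.07 CPM in dP1 (FDR 0.00483 by edgeR). Both were higher in dP2 and were called in each fit without 1 library. Cell wall genes of P3 were higher too. The IRX15-LIKE gene DCAR_010869, of xylan deposition in secondary walls, had 19.3, 29.3 and 21.7 CPM in dP2 and 10.4, 6.02 and 3.66 CPM in dP1, at a log2FC of 1.78 (SE 0.40, FDR 0.0134) by edgeR that was lost without dP2 root 2 (FDR 0.0550) and in the fit of 18 libraries (FDR 0.05004). The xyloglucan endotransglucosylase gene DCAR_010780 had 5.07, 3.06 and 17.1 CPM in dP2 and 0.921, 0.891 and 1.10 CPM in dP1, with the highest level in dP2 root 3. Its log2FC was 3.07 (SE 0.70, FDR 0.015) by edgeR and was lost without dP1 root 1 (FDR 0.0506) or dP1 root 3 (FDR 0.0520).

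In RIPAP outside P3, the mechanosensitive channel gene DCAR_010498 had 45.9, 58 and 27.5 CPM in dP2 and 17.8, 4.79 and 7.93 CPM in dP1. Its log2FC was 2.08 (SE 0.50, FDR 0.0178) by edgeR and was lost without dP1 root 3 (FDR 0.0706) or dP2 root 2 (FDR 0.0657), and in the fits of 12 and 18 libraries (FDR 0.0906 and 0.0553). The UNC93-like gene DCAR_010563 had the lowest FDR of the 3 decreases, with 15.7, 16.3 and 11.3 CPM in dP2 and 68.5, 53.9 and 60.8 CPM in dP1. Its log2FC was −2.11 (SE 0.23, FDR 0.00113) in edgeR's quasi-likelihood test, the call held in each fit without 1 library, and the pale set had 71, 42.6 and 38.8 CPM.

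Over all identifiers from the first to the last gene listed in an interval, the calls were 30 higher and 19 lower of 161 tested genes in P1 (30.4%), 43 higher and 9 lower of 140 in P3 (37.1%) and 71 higher and 28 lower of 288 in RIPAP (34.4%), which contains P3. The share over all genes tested was 30.5%, and P1 lay at that level. The median log2FC was −0.02 in P1, 0.26 in P3 and 0.11 in RIPAP, against 0.01 over all genes. Identifiers of the described genes other than DcMYB6 DCAR_000385 follow map position, upward or downward, on each of the 9 chromosomes, with 3 to 27 genes on each. The calls were laid out in the order of identifiers, which stands for gene order only as far as these few genes show. In 186 windows of 100 tested genes each, the number called had a median of 30 and ran from 16 to 50. The window with 50 calls ran from DCAR_004880 to DCAR_005099.

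**Figure D4:**
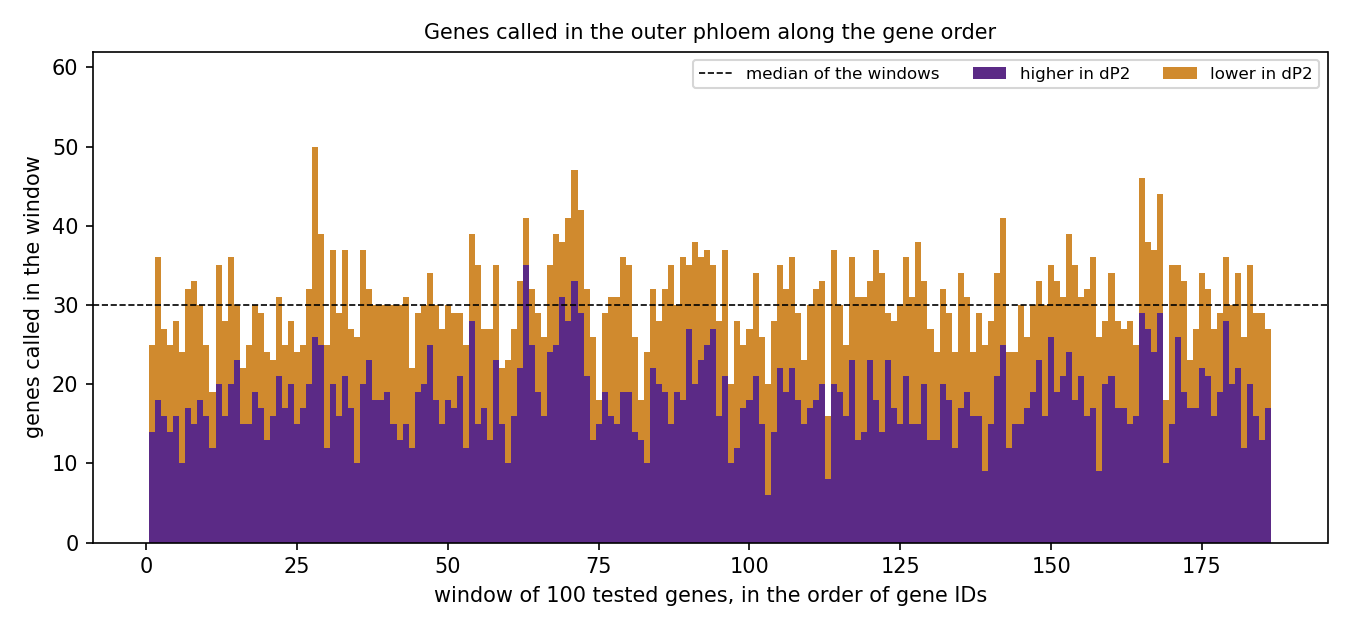
Genes called higher (purple) and lower (orange) in dP2 POP per window of 100 tested genes (vertical axis), with the 186 windows in the order of gene identifiers (horizontal axis) and the median of 30 as a dashed line. Calls occur in every window, from 16 to 50.

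The study lists 71 genes annotated as transcription factors whose level differed between POP and NPIP in each set, again chosen on these libraries and so no independent evidence of direction. Of the 70 tested here, 28 were higher in dP2, 3 were lower and 39 were not called (44.3% called, against 30.5% of all genes), with a median log2FC of 1.11. By family, calls of higher against lower were 5 and 0 of 17 tested MYB genes, 6 and 1 of 12 WRKY genes, 2 and 0 of 7 bHLH genes, 2 and 0 of 6 ERF genes and 1 and 0 of 2 NAC genes. Median log2FC values were 1.30 for MYB, 1.08 for WRKY, 0.15 for bHLH and −0.09 for ERF genes.

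Among MYB genes, DCAR_012548 (chromosome 3, 48190456 to 48192852) had the highest log2FC. It is described as Myb-related protein Myb4. It had 88.6, 108 and 77.7 CPM in dP2 and 4.08, 1.56 and 2.19 CPM in dP1, at a log2FC of 5.10 (SE 0.38, FDR 0.000383) in edgeR's quasi-likelihood test. A second Myb4-like gene, DCAR_018481, had 166, 236 and 176 CPM in dP2 and 73, 32.5 and 22.4 CPM in dP1, at a log2FC of 2.15 (SE 0.43, FDR 0.00868) by edgeR. Both were called in each fit without 1 library, and both had counts that were not whole in 2 of the 6 libraries. RAX1 DCAR_017673, whose *Arabidopsis* namesake acts in axillary meristems, had 19.3, 22.7 and 19.9 CPM in dP2 and 5.39, 1.34 and 4.15 CPM in dP1, at a log2FC of 2.48 (SE 0.47, FDR 0.00672) by edgeR, and had no read in any NPIP library of these sets.

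WRKY genes, many of them regulators of defence and senescence, were higher in 6 cases and lower in 1. WRKY6-like DCAR_004233 had 407, 508 and 481 CPM in dP2 and 127, 63.7 and 56.3 CPM in dP1, at a log2FC of 2.47 (SE 0.34, FDR 0.00233) in edgeR's quasi-likelihood test. The other WRKY6-like gene called, DCAR_019267, fell, with 23.4, 6.63 and 11.4 CPM in dP2 and 87.1, 38.4 and 58.2 CPM in dP1 and a log2FC of −2.17 (SE 0.50, FDR 0.0156) by edgeR. Genes with the same description thus moved in opposite directions. The call of DCAR_019267 was lost without dP2 root 3 (FDR 0.0581). WRKY75-like DCAR_024663 had 64, 81.7 and 43.1 CPM in dP2 and 23.7, 4.35 and 11.1 CPM in dP1, a call lost without dP1 root 3 (FDR 0.0786) or dP2 root 2 (FDR 0.0715). WRKY65-like DCAR_005143 had 22.5, 25.1 and 27 CPM in dP2 and 5.79, 3.23 and 9.51 CPM in dP1 (FDR 0.00792 by edgeR), without overlap.

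In the other families, bHLH041-like DCAR_011967 had 101, 89.1 and 70.3 CPM in dP2 and 11.4, 5.12 and 3.17 CPM in dP1, at a log2FC of 3.70 (SE 0.46, FDR 0.00176) in edgeR's quasi-likelihood test. bHLH25-like DCAR_021919 had 22, 46.1 and 35.4 CPM in dP2 and 6.58, 6.80 and 4.15 CPM in dP1, at a log2FC of 2.53 (SE 0.34, FDR 0.00224) by edgeR. The dehydration-responsive factor DREB2C DCAR_015358, of the ERF family, had 26.3, 39 and 32.8 CPM in dP2 and 5.0, 1.78 and 2.07 CPM in dP1, at a log2FC of 3.44 (SE 0.43, FDR 0.00167) by edgeR. All 3 of these calls held in each fit without 1 library. NAC100-like DCAR_016858 had 16.1, 26.5 and 10.6 CPM in dP2 and 5.92, 6.13 and 3.90 CPM in dP1 (FDR 0.0157 by edgeR), a call lost without dP1 root 3 (FDR 0.0591) or dP2 root 2 (FDR 0.0599), and in the fit of 12 libraries (FDR 0.0544).

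Outside these families, the following genes were named after their values were seen. The 3 heat shock or heat stress factors of the list were higher in dP2, beside 28 of the 70 tested genes of the list and 18.2% of all genes. No result is read from this count, since the genes were picked after their values were seen. HSF24 DCAR_010894 had 132, 185 and 133 CPM in dP2 and 73, 55.1 and 51.5 CPM in dP1 (FDR 0.00524 by edgeR). HsfC-1a DCAR_030483 had 3.02, 1.91 and 2.88 CPM in dP2 and 0.132, 0.111 and 0 CPM in dP1, a log2FC of 4.75 (SE 0.70, FDR 0.00283) by edgeR. It passed the filter through the dP2 libraries alone. HsfA4c DCAR_027970 had 22.8, 44.4 and 43.7 CPM in dP2 and 17.9, 12.5 and 12.1 CPM in dP1 (FDR 0.0154 by edgeR), a call lost without dP1 root 3, dP2 root 2 or dP2 root 3 (FDR 0.0553 to 0.0647) and in the fit of 12 libraries (FDR 0.0908). PCL1 DCAR_017856, whose *Arabidopsis* namesake belongs to the circadian clock, had 4.35, 7.14 and 6.13 CPM in dP2 and 0.395, 1.11 and 0.732 CPM in dP1, a log2FC of 2.90 (SE 0.48, FDR 0.00426) by edgeR. The demethylase gene DCAR_002041, described as JMJD5, had 10.1, 7.39 and 10.6 CPM in dP2 and 84, 73.6 and 36.7 CPM in dP1, a log2FC of −2.81 (SE 0.35, FDR 0.00175) by edgeR. A CCCH zinc finger gene, DCAR_000675, was the third of the lower genes, with 19.8, 13 and 7.69 CPM in dP2 and 49.1, 133 and 48 CPM in dP1.

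Of the 71 genes, 15 had a higher mean in NPIP than in POP in both sets, and 14 of these were tested in POP. In the outer phloem 6 of the 14 were higher in dP2 and 2 lower, with a median log2FC of 1.39, against 22 higher and 1 lower of the 56 genes with a higher mean in POP, with a median of 1.08. Over all genes tested 18.2% were higher and 12.3% lower. DOF4.6 DCAR_006979, also named after its values were seen, had 8.93, 17.8 and 9.01 CPM in dP2 POP and 1.45, 1.34 and 0.610 CPM in dP1 POP, and 75.3, 71.7 and 92.3 CPM in dP2 NPIP and 4.68, 11.9 and 8.93 CPM in dP1 NPIP. Its set difference was thus present in both tissues. ASIL2 DCAR_022336, named likewise, had 33, 16.4 and 20.3 CPM in dP2 POP and 3.42, 2.34 and 1.71 CPM in dP1 POP, with 99, 71.6 and 54.7 CPM in dP2 NPIP and 13.1, 14.7 and 14.3 CPM in dP1 NPIP. The part of inner phloem tissue in the dissected outer phloem was not tested.

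Markers of phloem and of secondary walls were few. Of the 3 homologs of the phloem identity gene APL, DCAR_019886 was higher in dP2, with 3.86, 4.84 and 1.56 CPM in dP2 and 0.789, 0.780 and 1.22 CPM in dP1 (FDR 0.0371 by edgeR), a call kept without dP2 root 3 and lost without any other library (FDR 0.0732 to 0.143). DCAR_009660 had 2.66, 6.63 and 3.24 CPM in dP2 and 0.395, 2.45 and 0.854 CPM in dP1 (FDR 0.099 by edgeR, 0.0495 by the likelihood ratio test and 0.0298 without dP1 root 2), and DCAR_019908 did not pass the filter on low values, with 1.09, 0.892 and 0.961 CPM in dP2 and 0, 0.780 and 0.122 CPM in dP1. The summed APL level was 5.77 to 12.4 CPM in dP2 and 1.18 to 4.01 CPM in dP1. KNAT7 DCAR_008430, a regulator of secondary walls, had 9.78, 14.4 and 6.61 CPM in dP2 and 8.29, 12.9 and 5.24 CPM in dP1 and was not called (FDR 0.769 by edgeR). The other secondary wall marker, IRX15-LIKE DCAR_010869 of P3, was higher in dP2, at a log2FC of 1.78 (SE 0.40, FDR 0.0134 by edgeR). As given above, its call was lost without dP2 root 2 and in the fit of 18 libraries. The wall markers thus differed from each other. Whether the dissected tissue held other shares of cell types in the sets was not tested, and in bulk tissue more cells of a type and more RNA per cell cannot be told apart.

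The inner phloem of the same roots showed where a set difference was not limited to purple tissue. In NPIP 6823 of 17728 genes tested differed between dP2 and dP1 (38.5%), 3603 of them higher (20.3%) and 3220 lower (18.2%), and 4404 differed without dP1 NPIP root 1. Of the 3395 genes higher in dP2 POP, 2678 were tested in NPIP, where their median log2FC was 2.01. The median in POP, taken over all 3395 genes, was 2.30. Of the 2302 genes lower in dP2 POP, 2199 were tested in NPIP, where their median log2FC was −1.09. The median in POP, taken over all 2302 genes, was −1.32. The medians of the tissues thus cover different sets of genes. POP and NPIP of a root share that root, so these are values of the same plants and not a repeat.

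The difference of the set effect between the tissues was tested in 1 fit of the 12 libraries and was called for 437 of 19847 genes (2.2%), 177 with a higher (0.892%) and 260 with a lower (1.31%) log2FC in POP. With the root as a block the count was 855. Without 1 library it was 53 or 70 on leaving out dP1 NPIP root 1 or 3, 216, 64 and 45 on leaving out dP2 POP root 1, 2 and 3, 55, 996 and 135 on leaving out dP1 POP root 1, 2 and 3, and 277 and 106 on leaving out dP2 NPIP root 1 and 2. Among the pathway, regulator and sugar genes, the sucrose invertase DCAR_009482 alone was called. It was higher in dP2 POP, as given above, and in NPIP it was lower, with 0.448, 0.555 and 1.14 CPM in dP2 and 8.32, 6.34 and 7.17 CPM in dP1 and a log2FC of −3.33 (SE 0.43, FDR 0.00243) by edgeR. The difference of the effects was 4.99 (SE 0.65, FDR 0.0114) in edgeR's quasi-likelihood test, and was called in each of the 12 fits without 1 library.

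WRKY6-like DCAR_004233 was higher in dP2 in both tissues, with 48.3, 88.6 and 128 CPM in dP2 NPIP and 2.99, 2.39 and 2.58 CPM in dP1 NPIP. The difference of the effects was −2.62 (SE 0.53, FDR 0.0378) by edgeR, and it was kept in 2 of the 12 fits without 1 library, with FDR up to 0.0976. The pathogen-related gene DCAR_010700 of P3 had 128, 66.9 and 114 CPM in dP2 POP and 51.9, 42.1 and 69.5 CPM in dP1 POP, which overlap. It was not called in POP (FDR 0.0608 by edgeR) but was called higher without dP2 root 2 (FDR 0.0341), by DESeq2 (FDR 0.0304), by the likelihood ratio test (FDR 0.0353) and in the fits of 12 and 18 libraries (FDR 0.0458 and 0.0162). In NPIP it had 28.7, 23.1 and 25.2 CPM in dP2 and 0, 0 and 0.117 CPM in dP1. The difference of the effects was −8.0 (SE 0.68, FDR 0.00138) by edgeR and was called in each of the 12 fits without 1 library. The dP1 NPIP libraries together held 1 read of this gene. The size of the difference thus rests on a level at the floor and is not a measured fold.

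**Figure D5:**
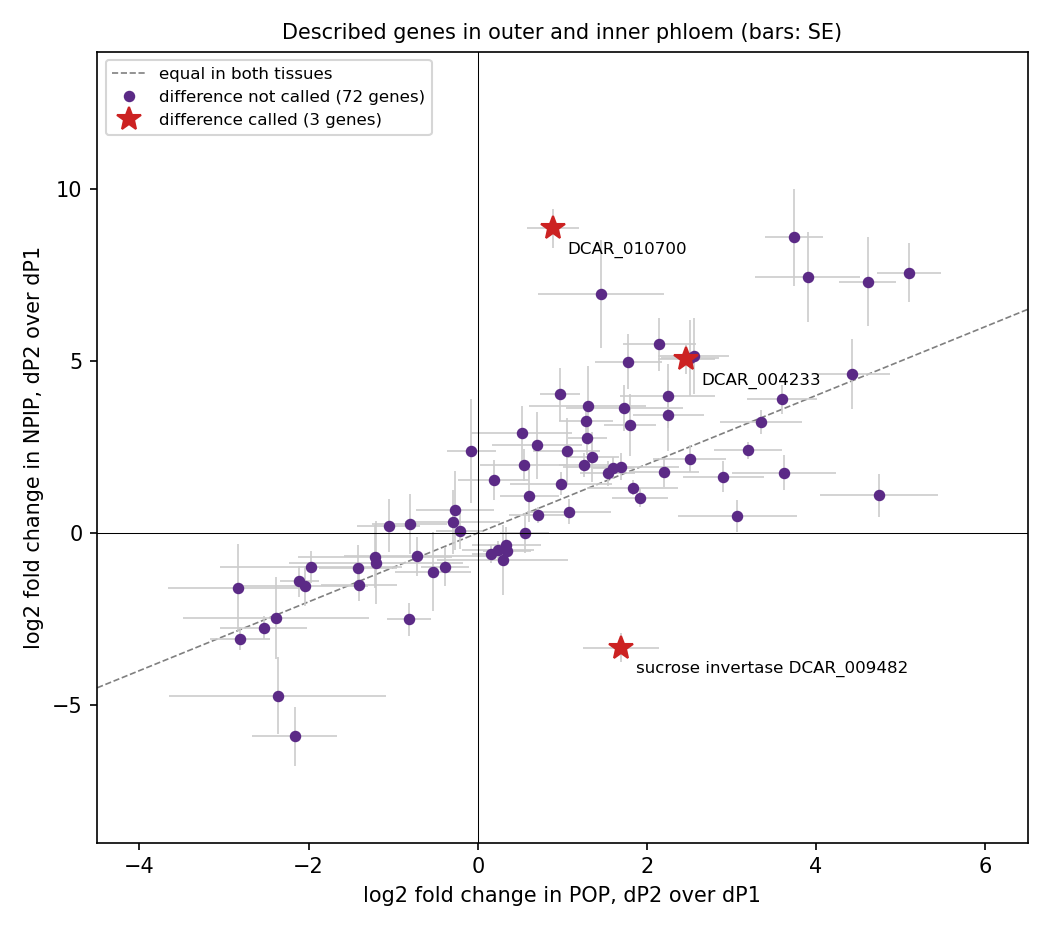
The log2 fold change of dP2 over dP1 in NPIP (vertical axis) is plotted against that in POP (horizontal axis), with bars of 1 SE, for the 75 described genes tested in both tissues. The dashed line marks equal values in both tissues, and stars mark the 3 genes whose difference was called, with the sucrose invertase at 1.70 in POP and −3.33 in NPIP.

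The 5 listed PAL and 4CL genes were higher in dP2 NPIP as well. DCAR_020833 had 43.5, 102 and 719 CPM in dP2 NPIP and 2.34, 2.15 and 0.940 CPM in dP1 NPIP, with dP2 root 3 the highest. The log2FC in NPIP was 7.31 (SE 1.30, FDR 0.00632) by edgeR, and the difference of the effects of the tissues was not called for any of the 5 entry genes (FDR 0.227 to 0.939 by edgeR). With the root as a block it was not called either (FDR 0.333 to 0.886). CHS was lower in dP2 NPIP, with 0.448, 0.444 and 2.50 CPM in dP2 and 4.94, 63.1 and 22.7 CPM in dP1, at a log2FC of −4.73 (SE 1.12, FDR 0.0173) by edgeR.

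Some genes were read in one set alone. Each dP2 POP library had at least 1 read in 22579 to 23048 genes, against 21400 to 21794 genes in dP1 POP, although the library totals overlap. Of the genes tested, 156 had no read in the 3 dP1 POP libraries and 42 had none in the 3 dP2 POP libraries. Against 3 reads over the silent group, the fold was at least 9.46 to 1104 for the 156 genes (median 37.0) and at least 14.1 to 1034 for the 42 genes (median 37.3). A gene with no read in one set passes the filter only with 1 CPM in each of the 3 libraries of the other. The filter thus sets a lowest fold in advance, and the low end of these ranges is no evidence of a difference. Expected counts were not whole in at least 1 library for 48 of the 156 genes and 15 of the 42. On leaving out a library the filter was set to 2 of the 5 left, which let more genes in. Genes without dP1 reads then numbered 365, 421 and 364 on leaving out dP1 root 1, 2 and 3 and 238 on leaving out dP2 root 1, and genes without dP2 reads numbered 109, 104 and 108 on leaving out dP2 root 1, 2 and 3. With the 18670 genes kept, a comparison chosen after seeing the data, genes without dP1 reads numbered 200, 238 and 195 on leaving out dP1 root 1, 2 and 3, and genes without dP2 reads 65, 59 and 56 on leaving out dP2 root 1, 2 and 3.

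Inner phloem and the pale set carried the same pattern for a share of these genes. Of the 156 genes, 108 also had no read in dP1 NPIP, 138 had reads in dP2 NPIP, and 66 had no read in any dP1 or pP library. Of the 42 genes, all 42 had reads in pP POP and in dP1 NPIP, and 25 had no read in any dP2 library. The same counts were not made over all genes tested, so no result is read from them. The gene with the highest level among those without dP1 reads, DCAR_023498, had 169.6, 78.6 and 149.7 CPM in dP2 and no read in dP1, at least 1104-fold higher, and no read in the outer phloem of the pale set. DCAR_004845 had 117, 82.7 and 115 CPM in dP2 and no read in dP1, at least 868-fold higher, with 35.3, 6.16 and 0 CPM in pP. In the other direction, DCAR_013549 had no read in dP2 and 187, 111 and 88.4 CPM in dP1, at least 1034-fold lower in dP2, with 132, 97.7 and 108 CPM in pP. DCAR_029209 had no read in dP2 and 58.9, 76.8 and 91.3 CPM in dP1, at least 620.4-fold lower in dP2, with 0, 103 and 136 CPM in pP, so that 1 pale root also lacked reads. The expected counts of DCAR_004845, DCAR_013549 and DCAR_029209 were not whole in 3 of the 6 libraries each. Of the 10 genes with the highest and the 10 with the lowest log2FC among called genes without overlap between sets whose log2 mean CPM reached 3, 9 and 9 had no read in the other set, and none is described in the study's tables.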

How the data were processed

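Single-end RNA-seq reads of 100 nt were trimmed by the authors with Trimmomatic 0.32, checked with FastQC, aligned with Bowtie2 and counted with RSEM on the V1.0 carrot annotation. The deposited expected counts are estimated reads per gene and are not normalized. RSEM divides reads that fit several genes, and 7.61% to 8.83% of genes in a POP library had a value that was not whole. The deposited TPM values, scaled by the authors for gene length, served only to compare levels between genes. Strand was not stated, so overlapping genes cannot be told apart.

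Rounded counts of the 6 libraries entered 1 edgeR 4.0.16 fit (R 4.3.3) with TMM factors and the quasi-likelihood F test. The filter of 1 CPM in 3 libraries and the FDR threshold of 0.05 follow the study. Printed CPM use TMM factors over the 18 libraries. Standard errors were derived from each log2FC and its F statistic. The 3 roots of a set are separate plants, and replicate libraries differed beyond sampling noise. The common biological coefficient of variation was 0.343. The script was tested on simulated data. Replicate numbers across sets name unrelated roots, with correlations of 0.03, 0.03 and −0.10. POP and NPIP of 1 number come from 1 root per the study, with correlations from 0.32 to 0.54 in dP2 and dP1. In pP the same numbers gave −0.23, 0.57 and −0.09, while POP 1 with NPIP 3 gave 0.58 and POP 3 with NPIP 1 gave 0.43, so its numbers may not name the same roots. No fit used root numbers of pP. Other tools were DESeq2 1.42.0, limma 3.58.1 and Python 3.11.15.

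The libraries, genes and lists were chosen with earlier results of these data known. Named are the anthocyanin genes of the study's text other than DcSCPL1, the called genes of its interval list, up to 4 called genes per transcription factor family, and the extremes of the comparison. The identifiers have descriptions in the study's tables alone, so at most 2 undescribed genes are printed in each direction, keyword lists over all genes were not used, the extremes of the difference between the tissues were limited to described genes, and sequences are not used here. Coordinates are those of the study's tables, which follow the carrot assembly v2.0. Alternatives were RLE factors, DESeq2, the likelihood ratio test, no filter, filterByExpr, unrounded counts, fits of 12 and 18 libraries, a replicate block and leaving out each library, with the filter at 2 of the POP or NPIP libraries left.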

Additional observations from a re-analysis of the deposited data

Results flagged for a closer look

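The effect of the set differed between outer and inner phloem for 3 of the described genes, by edgeR's quasi-likelihood test of the difference over 19847 genes. The sucrose invertase DCAR_009482 had a log2FC that was 4.99 higher in POP than in NPIP (FDR 0.0114), with dP2 higher in POP and lower in NPIP. The pathogen-related gene DCAR_010700 had a difference of −8.0 (FDR 0.00138), with 1 of the 3 dP1 NPIP libraries above 0, at 1 read, so its size rests on a level at the floor. The WRKY6-like gene DCAR_004233 had a difference of −2.62 (FDR 0.0378), with dP2 higher in both tissues. With 3 roots in a set, single roots that stand apart were not looked for by a test.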

How the results depend on the processing

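The count of genes higher in dP2 POP stayed between 2834 and 3853 over the 9 other settings and between 2349 and 3373 without 1 library, and the count of lower genes between 1582 and 3036 and, without 1 library, between 1239 and 2129. The share of higher genes among all calls ran from 54.2% to 66.7%. RLE factors shared 99.35% of the 5697 calls, DESeq2 99.33%, the replicate block, whose numbers join unrelated roots of the sets, 74.65%, and the fits without 1 library 60.58% to 81.67%. Calls in NPIP ran from 4404 to 6253 without 1 library. The difference between the tissues was called for 855 genes with the root as a replicate block, which pairs both tissues of a plant, and for 45 to 996 genes without 1 library. With no filter on low counts, 2235 genes had no read in dP1 and 1037 none in dP2, since genes of few reads enter. Without 1 library these counts were 171 to 421 and 49 to 109, and with the 18670 genes kept, added after seeing the data, 156 to 238 and 42 to 65, while higher and lower calls were then 2324 to 3229 and 1229 to 2049 (1529 without dP1 root 3 and 1306 without dP2 root 3). Genes that were not called changed sign in 4 cases. F3H DCAR_009483 had a log2FC of 0.32 with the replicate block and of −1.40 to 0.42 without 1 library, DcUCGalT1 DCAR_009912 of −1.79 to 0.34, the MATE gene DCAR_031151 of −1.14 to 0.22 and KNAT7 DCAR_008430 of −0.16 to 0.56. The cause was not tested. Of the 78 values for named genes, 78 kept their direction and call with RLE factors, 69 of 72 with DESeq2, 59 of 72 in the fit of 12 libraries, where 10 lost their call, and 66 of 75 in the fit of 18. With the replicate block 65 of 75 did, 6 lost their call, 3 gained one and 1 changed sign. With 3 roots in a set and wide spread in dP1, a gene without a call may still differ.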
